A study of Mus musculus with 9 samples.

Results

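The clustered histone genes were followed in TAMH cells exposed to a herbicide for 9 h. They were taken as the features of the deposited expression table whose platform symbols began with Hist1h, Hist2h, Hist3h or Hist4h, or with H1f, H2ac, H2bc, H3c or H4c and digits. The rule used names alone and no measured value. It found 68 features, and features with identical values on all 9 arrays were counted once, which left 65 of the 33883 distinct features of the table. Of these, 9 were H1 features, 16 H2A, 15 H2B, 12 H3 and 12 H4, and 1 carried symbols of H1 and H2B genes together. The features carried 66 gene symbols of the rule, of which RefSeq places 53 on mouse chromosome 13 and 10 on chromosome 3. The linker histone genes H1f7, H1f8 and H1f10 are covered by the rule but lie outside these clusters.

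Gene expression was measured on 9 Affymetrix Mouse Gene 2.1 ST arrays. The DQ group was 3 arrays of TAMH cells given diquat at 18 µM for 9 h, the PQ group was 3 arrays of cells given paraquat at 126 µM for 9 h, and the CON group was 3 arrays of cells kept in medium alone for 9 h. Diquat and paraquat are bipyridylium herbicides that cycle between oxidised and reduced forms inside cells and give rise to superoxide. TAMH is a single established line of mouse hepatocytes, derived from animals with a transforming growth factor alpha transgene. Per the labels' protocols all cells were grown to confluence in a medium with dexamethasone, nicotinamide, gentamicin and an insulin, transferrin and selenium supplement. The protocol describes dishes per treatment and does not say that the 3 arrays of a group were cultured apart. The p-values therefore speak only of the variation among these arrays, which may be technical. The 2 doses differ.

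Each round of DNA synthesis needs new histone protein to package the new DNA. The replication-dependent histone genes, most of them in a few dense clusters, supply it: their mRNAs are made in S phase, end in a stem-loop instead of a poly(A) tail, and are degraded when DNA synthesis stops. The stem-loop is bound by SLBP and trimmed by a particle that contains the U7 RNA, while NPAT, a target of cyclin E and CDK2, activates transcription. H2A pairs with H2B and H3 pairs with H4 to form the nucleosome core, and H1 binds the linker DNA between cores. The mRNAs of a family are close to identical in their coding parts. On this array 35 of the 65 features carried several symbols, and 29 of the 66 genes had a feature of their own. Signal on a feature with several symbols could not be assigned to 1 of its genes, and it is given here for the group of symbols.

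Promoters of 5 genes behind features that passed the test are shown because histone genes are regulated largely through short elements close to the start of transcription. RefSeq promoter sequences of the build GRCm38.p6 were found for 61 of the 66 genes. The last 150 bases before the gene start are given 5′ to 3′ on the gene's strand. Capitals mark matches, on either strand, to TATAA (the TATA box core), CCAAT (the CCAAT box), ATTTGCAT (the octamer element of H2B genes) and AAACACA (an element of H1 promoters, added to the search after the data were seen). H1f2 and H1f3 are linker histone genes, H2ac10 an H2A gene, and H2bc8 and H2bc6 are H2B genes that share a pair of features with H2bc4. The promoters of H2bc8 and H2bc6 were added to the display after the data were seen. Promoters of H2bc4 and of the genes behind the other passing features, of H2ac18, H2ac19 and H2ac20 and of 8 H3 genes, are not printed. H1f2 is at chr13:23738657-23738806 (plus strand), H1f3 at chr13:23554882-23555031 (plus strand), H2ac10 at chr13:23533725-23533874 (plus strand), H2bc8 at chr13:23571250-23571399 (plus strand) and H2bc6, at 1 of its RefSeq starts, at chr13:23585971-23586120 (minus strand).
H1f2: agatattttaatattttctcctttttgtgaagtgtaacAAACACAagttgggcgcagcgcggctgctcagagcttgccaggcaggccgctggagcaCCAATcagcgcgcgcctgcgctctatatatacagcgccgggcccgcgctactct
H1f3: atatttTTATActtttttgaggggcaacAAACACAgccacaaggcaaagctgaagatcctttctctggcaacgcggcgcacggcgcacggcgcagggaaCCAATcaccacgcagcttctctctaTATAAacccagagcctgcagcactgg
H2ac10: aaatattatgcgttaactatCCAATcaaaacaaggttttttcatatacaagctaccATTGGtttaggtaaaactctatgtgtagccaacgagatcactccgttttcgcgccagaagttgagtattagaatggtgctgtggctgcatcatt
H2bc8: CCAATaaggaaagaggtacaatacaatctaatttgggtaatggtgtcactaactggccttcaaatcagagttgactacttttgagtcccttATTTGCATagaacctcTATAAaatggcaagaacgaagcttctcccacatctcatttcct
H2bc6: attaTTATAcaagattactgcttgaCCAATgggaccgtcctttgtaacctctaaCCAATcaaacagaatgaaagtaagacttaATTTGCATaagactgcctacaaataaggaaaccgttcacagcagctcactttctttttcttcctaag

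Both H1 promoters hold AAACACA and, nearer the start, CCAAT, and both H2B promoters hold the octamer. The octamer lies 59 bases before the start in H2bc8 and 67 bases before it in H2bc6. Over the 250 bases before the start, CCAAT was present in 49 of the 61 histone promoters (80.3%), against 34.5% of the 27025 promoters searched. It was present in all 17 H2A and all 14 H2B promoters and in 3 of 11 H4 promoters. TATAA was present in 59.0% of histone promoters, against 23.5% of all promoters. The octamer was present in 19.7% of histone promoters, against 1.62% of all promoters. It was found in 6 of 14 H2B and 6 of 17 H2A promoters and in 0 of the H1, H3 and H4 promoters. AAACACA was present in 5 of 9 H1 promoters, against 6.23% of all promoters. H2bc6 entered these counts with its outermost start, whose sequence holds no octamer. The letters are a description of these windows and no measurement of binding.

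The values are log2 expression from RMA, and over the whole table they ran from 3.89 to 13.19. Array medians lay between 5.95 and 6.04. DQ replicate 3 stood apart: it differed from its group mates by 0.153 (root mean square) over all features, against 0.0765 to 0.124 for the other arrays, and 0.208 over the histone features, against 0.111 to 0.164. For the histone features as a whole, the count that passed is therefore given with and without it. Counts by family, signal, position and gene list include it unless stated. Differences were tested with limma over all 33883 features with Benjamini-Hochberg adjustment, and a feature passed at an adjusted p under 0.05. The hepatocyte label was checked against 13 marker genes. Of these, 11 had a mean above the median of all features, and Cyp2e1 and G6pc had a mean over the 9 arrays below it. Cyp2e1 averaged 5.35 in DQ cells, 5.48 in PQ cells and 5.45 in CON cells, and G6pc averaged 5.67 in DQ cells, 5.68 in PQ cells and 6.19 in CON cells. The albumin gene Alb was at 12.73 ± 0.01 in DQ cells, 12.73 ± 0.07 in PQ cells and 12.73 ± 0.02 in CON cells (SD, n = 3 each). Among 18 markers of other liver cells, the biliary genes Sox9 and Krt7 were at 10.20 and 8.96 in CON cells, and the leukocyte gene Ptprc at 5.38. Markers of stellate, Kupffer and endothelial cells lay on both sides of the median of all features. In CON cells the stellate genes Col1a1 and Lrat were at 9.18 and 5.77. The Kupffer cell genes Cd68 and Adgre1 were at 7.62 and 5.53, and the endothelial genes Cdh5 and Stab2 at 6.28 and 5.31. These pairs were named after their values were seen. RNA came from whole cultures, so fewer cells in S phase and less histone RNA per cell cannot be told apart.

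A minority of the histone features fell with diquat. Of the 65 features, 7 were lower in DQ cells than in CON cells (10.8%) and 0 were higher at the adjusted threshold, against 1.58% of all features lower and 2.67% higher. At an unadjusted p under 0.05 in the same limma fit, 21 were lower and 2 were higher, against 8.92% of all features lower and 8.9% higher. The 3 DQ arrays lay entirely below the 3 CON arrays for 17 features (26.2%), against 9.27% of all features, and entirely above them for 2, against 8.85% of all features. The median log2 fold change over the 65 features was -0.09, against -0.01 over all features, with 52 negative and 12 positive. Without DQ replicate 3, 10 features were lower and 0 higher. These 10 held 6 of the 7 and added H2bc9, H2bc21, a feature of H2bc7, H2bc11, H2bc13 and H2bc15, and a feature of 8 H3 genes, which were named after their values were seen. Without CON replicate 1, 4 of the 7 passed and no other, and in a test against a fold of 1.2 none did with either compound.

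With paraquat the count was smaller. In PQ cells 3 features were lower than in CON cells (4.62%) and 0 were higher, against 1.27% of all features lower and 1.66% higher. At an unadjusted p under 0.05 in the limma fit, 16 were lower and 0 higher, against 6.09% of all features lower and 6.26% higher. The PQ arrays lay entirely below the CON arrays for 14 features (21.5%), against 8.36% of all features, and entirely above them for 1, against 8.8% of all features. The median log2 fold change was -0.06, against 0.00 over all features, with 44 negative and 19 positive. All 3 were among the 7 that passed with diquat, a count that rests in part on the CON arrays that both comparisons share. No histone feature passed without PQ replicate 2, PQ replicate 3, CON replicate 1 or CON replicate 3, 1 passed without PQ replicate 1, and 2 passed without CON replicate 2, of which 1 was among the 3. Without DQ replicate 3 the same 3 features passed.

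**Figure D1:**
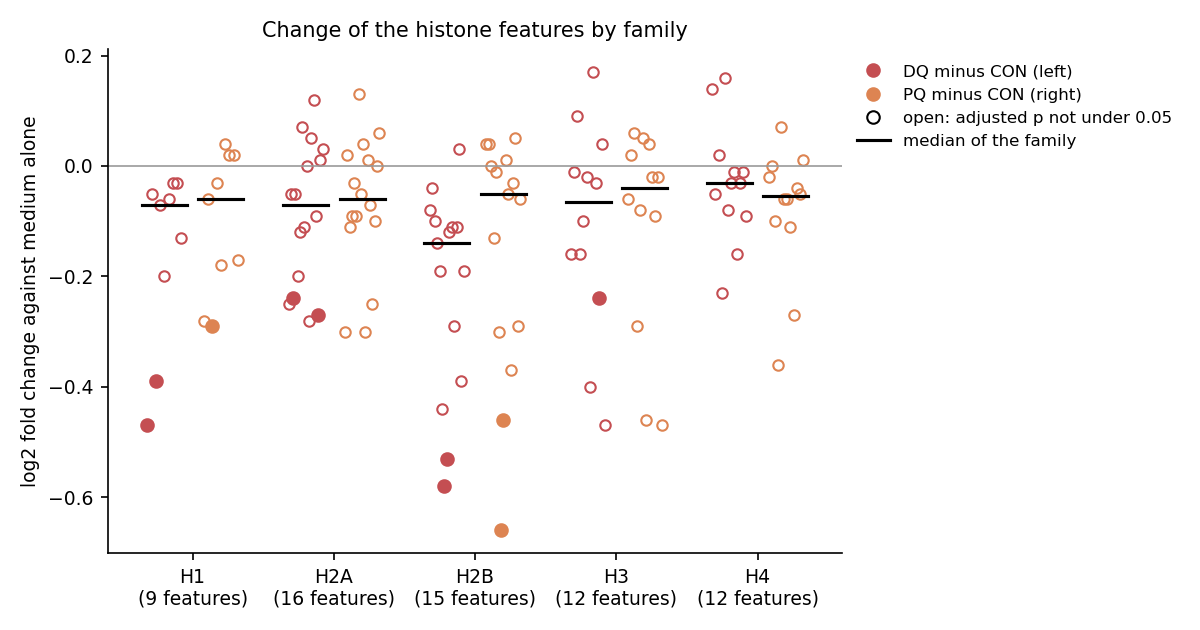
Log2 fold change against medium alone (vertical axis) of the histone features of each family, with DQ minus CON on the left and PQ minus CON on the right of each family; the feature shared by H1 and H2B genes is not drawn. Filled points passed the adjusted p of 0.05 and bars are medians: the filled points are all below 0, and H4 has none. Of the 12 H4 features, 3 had a mean at or above the median of all features.

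The largest falls were in H2B. H2bc4, H2bc6 and H2bc8 share 2 features. The first (17285834) was at 8.59, 8.35 and 8.36 in the DQ arrays, 8.15, 8.45 and 8.47 in the PQ arrays, and 9.03, 8.77 and 9.24 in the CON arrays. All 6 treated arrays were below all 3 CON arrays. It fell 1.49-fold with diquat (log2 fold change -0.58, SE 0.13, adjusted p 0.0341) and 1.58-fold with paraquat (-0.66, SE 0.13, adjusted p 0.0239). The second (17285851) was at 9.44, 9.41 and 9.69 in the DQ arrays, 9.69, 9.43 and 9.62 in the PQ arrays, and 10.12, 9.99 and 10.02 in the CON arrays, again with no overlap. It fell 1.44-fold with diquat (-0.53, SE 0.09, adjusted p 0.00893) and 1.38-fold with paraquat (-0.46, SE 0.09, adjusted p 0.0208). The diquat call on the second feature passed without each array in turn. The diquat call on the first was lost without DQ replicate 2 or 3, PQ replicate 2 or 3, or CON replicate 1 or 3 (adjusted p 0.0545 to 0.108), and also with the replicate number as a block, in a fit of 2 groups alone and with array weights (0.0567, 0.0801 and 0.0725). The paraquat call on the first was lost in a fit of 2 groups alone (adjusted p 0.0587) and without any PQ array or CON replicate 1 or 3 (0.0633 to 0.0928), and that on the second without PQ replicate 2 or 3 or any CON array for the second (adjusted p 0.0657 to 0.0928).

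The same 3 genes are also listed, with other H2B genes, on a pair of features of 12 symbols each. Their log2 fold changes were -0.04 and -0.14 with diquat, and 0.04 and -0.13 with paraquat, and none passed. The feature shared by H1f4 with H2bc4, H2bc6 and H2bc8 had -0.09 with diquat and -0.16 with paraquat (adjusted p 0.6 and 0.433). Features that carry these symbols thus gave unequal values, and which mRNAs each of them measured was not tested. Over all 15 H2B features the median log2 fold change was -0.14 with diquat and -0.05 with paraquat, and 14 and 10 were negative. H2bc1, an H2B gene known from the testis, had the highest mean change of the family: it was at 4.38, 4.19 and 4.15 in the DQ arrays, 4.17, 4.23 and 4.39 in the PQ arrays, and 4.15, 4.23 and 4.26 in the CON arrays, with all groups overlapping near the bottom of the array's range.

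The linker histone genes H1f2 and H1f3 fell with diquat. H1f3 was at 7.46, 7.35 and 7.43 in the DQ arrays, 7.59, 7.61 and 7.61 in the PQ arrays, and 8.07, 7.76 and 7.83 in the CON arrays. The DQ arrays were the lowest, the PQ arrays lay between, and no group overlapped another. The fall was 1.39-fold with diquat (log2 fold change -0.47, SE 0.07, adjusted p 0.00602); with paraquat the value was -0.28 (SE 0.07, adjusted p 0.0788), which passed only after quantile normalization (0.0389) or without dim features (0.0437). H1f2 was at 9.15, 9.01 and 9.25 in the DQ arrays, 9.30, 9.13 and 9.29 in the PQ arrays, and 9.52, 9.52 and 9.55 in the CON arrays. The CON arrays were within 0.03 of each other and above all treated arrays. It fell 1.31-fold with diquat (-0.39, SE 0.07, adjusted p 0.00971) and 1.22-fold with paraquat (-0.29, SE 0.07, adjusted p 0.0485). The diquat calls of both genes passed without each array in turn, while the paraquat call of H1f2 was lost without DQ replicate 1, any PQ array or any CON array (adjusted p 0.0766 to 0.166) and with arrays centred (0.11).

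The other 7 H1 features did not pass with either compound. They ran from -0.20 to -0.03 with diquat and from -0.18 to 0.04 with paraquat. H1f10, a linker histone gene outside the clusters whose mRNA is polyadenylated, had the highest mean change of the family on a feature it shares with the gene model Gm5577, at -0.03 with diquat and 0.02 with paraquat. On its own feature, named after its values were seen, it had -0.13 and -0.17 (adjusted p 0.122 and 0.0642), and both treated groups lay below the CON arrays.

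Among the 16 H2A features, 2 fell with diquat (12.5%) and 0 with paraquat, against 1.58% and 1.27% of all features. At an unadjusted p under 0.05 in the limma fit, 4 were lower with diquat and 5 with paraquat, and 0 were higher with either. Over all features 8.92% and 6.09% were lower at that threshold. The feature shared by H2ac18, H2ac19 and H2ac20 on chromosome 3 was at 10.69, 10.65 and 10.59 in the DQ arrays, 10.80, 10.84 and 10.80 in the PQ arrays, and 10.90, 10.89 and 10.95 in the CON arrays. The groups were close but did not overlap. It fell 1.21-fold with diquat (log2 fold change -0.27, SE 0.04, adjusted p 0.004), without each array in turn as well, and with paraquat its value was -0.10 (SE 0.04, adjusted p 0.286). H2ac10 was at 10.56, 10.49 and 10.57 in the DQ arrays, 10.76, 10.62 and 10.64 in the PQ arrays, and 10.81, 10.80 and 10.74 in the CON arrays. The DQ arrays were below all others, and the PQ and CON arrays overlapped. Its fall with diquat was 1.18-fold (-0.24, SE 0.05, adjusted p 0.0186) and was lost without CON replicate 1 or 2 (adjusted p 0.0792 and 0.0822) and with arrays centred on their medians (0.073). With paraquat its log2 fold change was -0.11 (adjusted p 0.358).

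The remaining H2A features ran from -0.28 to 0.12 with diquat and from -0.30 to 0.13 with paraquat. A set of 10 H2A genes was carried by 7 features, none of which passed. The lowest of the family by mean change was 1 of these (17291057), with -0.28 for diquat and -0.30 for paraquat (adjusted p 0.161 and 0.168). H2ac15 had the highest mean change, at 8.18, 8.20 and 8.40 in the DQ arrays, 8.33, 8.31 and 8.30 in the PQ arrays, and 8.23, 8.20 and 8.13 in the CON arrays. Its PQ arrays lay above its CON arrays, with a log2 fold change of 0.13 that did not pass (adjusted p 0.420).

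**Figure D2:**
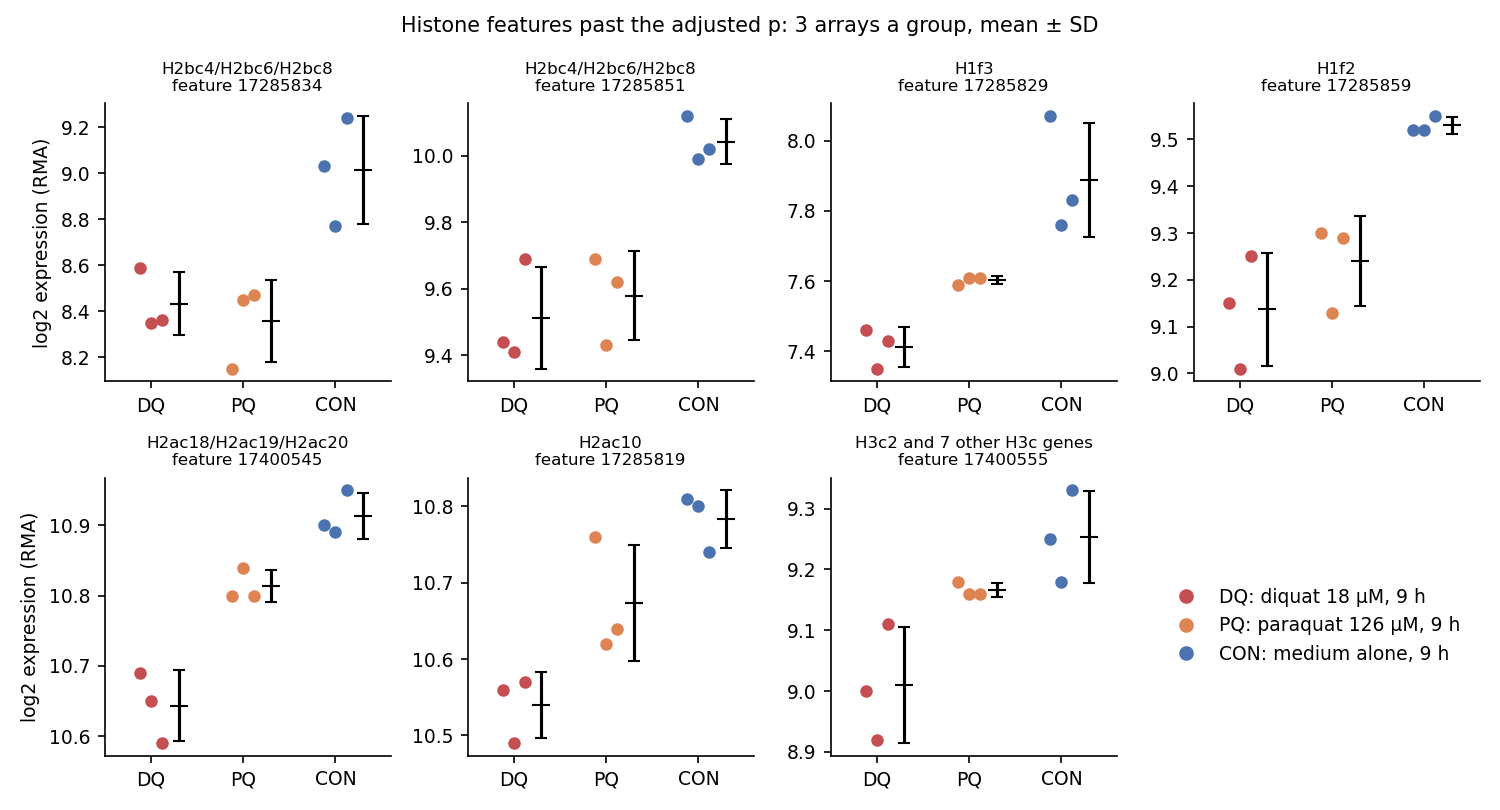
Log2 expression (vertical axis, RMA, a scale of its own in each panel that does not start at 0) of the 7 histone features that passed the adjusted p, with 1 point per array for DQ, PQ and CON and the mean ± SD of 3 arrays beside them. The DQ arrays lie below the CON arrays in every panel, and the PQ arrays do so in 5 of the 7.

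For H3, 1 of 12 features fell with diquat (8.33%) and 0 with paraquat, against 1.58% and 1.27% of all features. At an unadjusted p under 0.05 in the limma fit, 4 were lower and 1 higher with diquat, against 8.92% and 8.9% of all features. With paraquat 2 were lower and 0 higher, against 6.09% and 6.26%. The median log2 fold changes were -0.06 and -0.04 over the 12. Over the 4 with a mean at or above the median of all features they were -0.32 and -0.27. The 8 symbols H3c2, H3c3, H3c4, H3c6, H3c7, H3c13, H3c14 and H3c15, were carried together by 8 features, and the feature that passed (17400555) was 1 of these. It was at 9.00, 8.92 and 9.11 in the DQ arrays, 9.18, 9.16 and 9.16 in the PQ arrays, and 9.25, 9.18 and 9.33 in the CON arrays. The DQ arrays were the lowest, and the highest PQ array equalled the lowest CON array. Its log2 fold change was -0.24 with diquat (SE 0.05, adjusted p 0.0379) and -0.09 with paraquat (adjusted p 0.634). This call passed without DQ replicate 3 but was lost without any other of the 9 arrays (adjusted p 0.0557 to 0.128), with arrays centred (0.124) and in a fit of 2 groups alone (0.122). The 8 features ran from -0.47 to 0.17 with diquat and from -0.47 to 0.06 with paraquat. The lowest (17408015) was at 6.49, 6.27 and 6.73 in the DQ arrays, 6.58, 6.55 and 6.37 in the PQ arrays, and 7.16, 6.73 and 7.01 in the CON arrays. It had -0.47 with either compound (SE 0.13) and did not pass (adjusted p 0.0851 with diquat and 0.116 with paraquat), although it passed with diquat without DQ replicate 3 (-0.59, adjusted p 0.0429) and without dim features (0.048). The highest (17291222) had 0.17 with diquat and 0.04 with paraquat, and averaged 4.69 in CON cells, below the median of all features.

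No H4 feature passed with either compound in the main fit, which used all 9 arrays with a mean for each group and no block or array weights. Of the 12 H4 features, 3 had a mean at or above the median of all features. That range held every histone feature that passed in the main fit. A difference of H4 from the other families can therefore not be told apart from its lower signal. Of 12 features, 1 was lower and 1 higher with diquat at an unadjusted p under 0.05 in the limma fit, and 2 were lower and 0 higher with paraquat. Over all features the shares at that threshold were 8.92% lower and 8.9% higher with diquat, and 6.09% lower and 6.26% higher with paraquat. The lowest, shared by 13 symbols (17285846), was at 5.16, 4.84 and 5.20 in the DQ arrays, 5.00, 4.85 and 4.97 in the PQ arrays, and 5.38, 5.16 and 5.36 in the CON arrays. Its log2 fold change was -0.23 with diquat and -0.36 with paraquat (adjusted p 0.248 and 0.101), and the paraquat value passed without DQ replicate 2 (adjusted p 0.0255), with the replicate number as a block (0.0144), in a fit of 2 groups alone (0.0487) and with array weights (0.0347). The highest, H4c2, was at 4.87, 4.75 and 5.04 in the DQ arrays, 4.75, 4.85 and 4.78 in the PQ arrays, and 4.69, 4.74 and 4.75 in the CON arrays. Its log2 fold changes were 0.16 with diquat and 0.07 with paraquat. The family medians were -0.03 and -0.05.

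In the main fit, the features that passed were all in the upper range of signal. With the median of all features (6.02) as the limit, 30 histone features had a mean over the 9 arrays at or above it and 35 lay below. Of the brighter 30, 7 were lower with diquat (23.3%) and 3 with paraquat (10.0%), and over all features of that range the shares were 2.9% and 2.46%. Of the dimmer 35, 0 passed with either compound in the main fit, and over all dimmer features 0.248% and 0.0827% were lower. Some of the dimmer 35 passed in alternatives. Without DQ replicate 3, H2bc9, H2bc21 and a feature of H2bc7, H2bc11, H2bc13 and H2bc15 passed as lower with diquat. H2bc9 also passed with paraquat in a fit of 2 groups alone. The H4 feature 17285846 passed with paraquat in 4 alternatives. At an unadjusted p under 0.05, 4 of the dimmer 35 were lower and 2 higher with diquat, and 5 were lower and 0 higher with paraquat. Over all dimmer features those shares were 5.03% lower and 2.34% higher with diquat, and 1.5% lower and 2.01% higher with paraquat. The brighter features had a median log2 fold change of -0.13 with diquat and -0.09 with paraquat, and the dimmer ones -0.03 with each. Near the bottom of the range an RMA value cannot be separated from background. At the top of the range, the feature of H2bc7, H2bc11, H2bc13 and H2bc15 with the highest signal, named after its values were seen, was at 12.35, 12.46 and 12.46 in the DQ arrays, 12.49, 12.46 and 12.50 in the PQ arrays, and 12.53, 12.58 and 12.49 in the CON arrays, and did not pass.

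**Figure D3:**
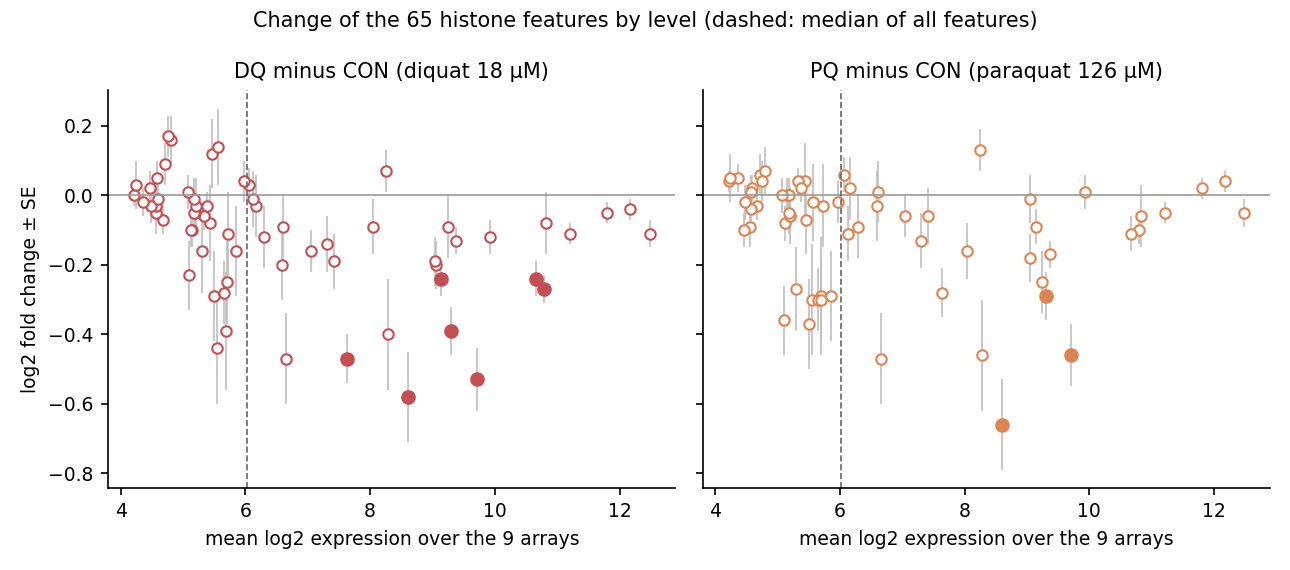
Log2 fold change ± SE (vertical axis) of the 65 histone features against their mean log2 expression over the 9 arrays (horizontal axis), for DQ minus CON on the left and PQ minus CON on the right. Filled points passed the adjusted p of 0.05 in the main fit. They lie to the right of the dashed line at 6.02, and none lies above 0.

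By position, 42 features carried symbols of chromosome 13 alone, of which 5 were lower with diquat (11.9%) and 3 with paraquat (7.14%). Over all features 1.58% and 1.27% were lower, so in the smaller sets below a count of 0 lies near that share. Of 7 features of chromosome 3 alone, 1 was lower with diquat and 0 with paraquat, and of 12 features that span both chromosomes the counts were 1 and 0. The 4 features of H1f7, H1f8 and H1f10 had none. Array by array, the median difference of the 30 brighter features from the CON mean was -0.14, -0.22 and -0.13 in the DQ arrays, -0.05, -0.13 and -0.09 in the PQ arrays, and 0.0, -0.01 and 0.0 in the CON arrays. Every treated array was thus below every CON array in this median. Over all brighter features the array medians ran from -0.01 to 0.01. Taking differences from the CON mean holds the CON values around 0, and the brighter features include every one that passed in the main fit.

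PQ and DQ cells were also set against each other, at their different doses of 126 and 18 µM. No histone feature passed, and 0.0% of all 33883 features did. In the limma fit 8 histone features were higher in PQ cells and 1 lower at an unadjusted p under 0.05, against 5.32% of all features higher and 4.28% lower. The median log2 difference was 0.02. For the feature of H2ac18, H2ac19 and H2ac20 the PQ minus DQ difference was 0.17 (95% interval 0.09 to 0.25, adjusted p 0.396), and for H1f3 it was 0.19 (0.03 to 0.35, adjusted p 0.487). For the features of H2bc4, H2bc6 and H2bc8 the intervals held 0, at -0.36 to 0.21 and -0.13 to 0.26. The calls made with diquat and not with paraquat were therefore not shown to differ between the compounds.

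Of 21 genes of histone mRNA synthesis and processing, 2 rose with diquat, 0 fell, and with paraquat 0 passed. Over all features 2.67% were higher and 1.58% lower with diquat, and 1.66% and 1.27% with paraquat, so 0 lower is near that share. At an unadjusted p under 0.05 in the limma fit, 3 were higher and 0 lower with diquat, and 2 and 4 with paraquat. Over all features those shares were 8.9% and 8.92% with diquat, and 6.26% and 6.09% with paraquat. The DQ arrays lay entirely below the CON arrays for 3 (14.3%) and above for 4, against 9.27% and 8.85% of all features. The PQ arrays did so for 8 (38.1%) and 3, against 8.36% and 8.8%. Slbp, the stem-loop binding protein, was at 9.93, 9.92 and 9.96 in the DQ arrays, 9.81, 9.82 and 9.83 in the PQ arrays, and 9.93, 9.91 and 9.88 in the CON arrays. Its PQ arrays were the lowest, without a call (log2 fold change 0.03 with diquat and -0.09 with paraquat, adjusted p 0.671 and 0.266). Npat, the coactivator, had 0.05 and -0.08 (adjusted p 0.773 and 0.801), and its diquat value was -0.05 without DQ replicate 3. Lsm10, a protein of the U7 particle, rose with diquat (0.19, SE 0.04, adjusted p 0.0268), as did Hinfp, a transcription factor of H4 genes (0.22, SE 0.05, adjusted p 0.0481). With paraquat they had 0.14 and 0.22 (adjusted p 0.127 and 0.0612). The Lsm10 call was lost without DQ replicate 2 or 3 or any CON array (adjusted p 0.0529 to 0.109), and the Hinfp call without any array but DQ replicate 2 (0.0717 to 0.178). Without DQ replicate 3 no gene of the list passed as higher, and Cpsf3, the endonuclease that cleaves histone pre-mRNA, passed as lower with diquat (named after its values were seen).

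Variant histone genes and histone chaperone genes each gave 1 lower call with each compound. The share lower was 11.1% of the variant histone genes and 5.26% of the chaperone genes. Over all features it was 1.58% with diquat and 1.27% with paraquat, and over the 65 histone features 10.8% and 4.62%. Of 9 measured variant histone genes, 1 fell with each compound: H2az2, an H2A.Z gene, was at 10.36, 10.15 and 10.17 in the DQ arrays, 10.27, 10.18 and 10.21 in the PQ arrays, and 10.56, 10.52 and 10.54 in the CON arrays. The treated arrays were all lower, by -0.31 with diquat and -0.32 with paraquat on the log2 scale (SE 0.06 each, adjusted p 0.0138 and 0.0152). The diquat call was lost without any CON array (0.0519 to 0.0601), and the paraquat call without PQ replicate 2 or 3 or any CON array (0.0597 to 0.074). H2az1, the other H2A.Z gene, had -0.02 and -0.05, and H2ax, the variant phosphorylated at DNA breaks, -0.19 and -0.14 (adjusted p 0.0584 and 0.225). Of 19 chaperone genes, Asf1b, an H3 and H4 chaperone, fell with both compounds (-0.21 each, SE 0.04, adjusted p 0.0308 with diquat and 0.0381 with paraquat), and Npm1, a nucleolar chaperone, rose with diquat (0.16, SE 0.04, adjusted p 0.0473). The Asf1b calls were lost when any CON array was left out (adjusted p 0.0664 to 0.116 with diquat and 0.0798 to 0.156 with paraquat) and without some treated arrays, the Npm1 call without any array (0.0581 to 0.178).

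Some S phase and mitosis genes passed as lower too, and most genes of both lists had negative values. Of 31 S phase genes, 4 were lower (12.9%) and 0 higher with each compound, with median log2 fold changes of -0.09 and -0.10. The values were negative for 28 with diquat and for 31 with paraquat. The DQ arrays lay entirely below the CON arrays for 15 (48.4%), against 9.27% of all features and 12.4% of the brighter ones. The PQ arrays did so for 22 (71.0%), against 8.36% and 13.4%. No gene had treated arrays entirely above the CON arrays. Over all features 1.58% were lower with diquat and 1.27% with paraquat, and over the brighter ones 2.9% and 2.46%. Ccne1, cyclin E1, was at 8.89, 8.95 and 8.87 in the DQ arrays, 8.89, 8.85 and 8.93 in the PQ arrays, and 9.24, 9.15 and 9.25 in the CON arrays. It fell by 0.31 with diquat and by 0.32 with paraquat on the log2 scale (SE 0.04 each, adjusted p 0.00331 and 0.00328), also without each array in turn. Tk1, thymidine kinase, fell with diquat (-0.26, SE 0.03, adjusted p 0.00293) and had -0.09 with paraquat (adjusted p 0.26). Rrm2, a ribonucleotide reductase subunit, fell by 0.21 with each compound (adjusted p 0.0306 and 0.0351). E2f8, a repressor of the E2F family, fell with diquat (-0.32, adjusted p 0.0377), and Prim1, a primase subunit, and Gins1, of the replication helicase complex, fell with paraquat (-0.31 and -0.19, adjusted p 0.0351 and 0.0407). Leaving out 1 array at a time gave 2 to 6 such S phase calls with diquat and 1 to 5 with paraquat. Ccne1 and, with diquat, Tk1 passed every time, and the other calls were each lost without CON replicate 1 (adjusted p 0.113 to 0.151), among others.

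Of 19 mitosis genes, 4 were lower with diquat (21.1%) and 2 with paraquat (10.5%), with 0 higher. The values were negative for 17 with diquat and for 18 with paraquat. The DQ arrays lay entirely below the CON arrays for 10 (52.6%), against 9.27% of all features and 12.4% of the brighter ones. The PQ arrays did so for 12 (63.2%), against 8.36% and 13.4%, and 0 genes lay entirely above with either compound. Over all features 1.58% and 1.27% were lower, and over the brighter ones 2.9% and 2.46%. Mki67, the proliferation antigen, fell by 0.27 with each (SE 0.04, adjusted p 0.00401 and 0.00452), and Cdc20, an activator of the anaphase-promoting complex, fell with diquat (-0.26, SE 0.04, adjusted p 0.00956). Ttk, a spindle checkpoint kinase, fell by 0.18 with diquat and by 0.24 with paraquat (adjusted p 0.0443 and 0.0178), and Ccnb2, cyclin B2, by 0.15 with diquat (adjusted p 0.0367). Mki67 and Cdc20 passed without each array in turn, while the Ttk and Ccnb2 calls were lost without CON replicate 1 (adjusted p 0.0716 to 0.128), among others. Leaving out 1 array gave 2 to 4 mitosis calls with diquat and 1 to 2 with paraquat.

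Hepatocyte markers moved in the same direction. Of 13 measured, 6 were lower with diquat (46.2%) and 5 with paraquat (38.5%), and 0 were higher, with medians of -0.21 and -0.16. Over all features 1.58% and 1.27% were lower. Cps1, the entry enzyme of the urea cycle, fell by 0.75 and 0.80 (SE 0.12 each, adjusted p 0.00691 and 0.00603), and Fga, a fibrinogen chain, by 0.56 and 0.66 (SE 0.08 each, adjusted p 0.00405 and 0.00202). G6pc fell with both (-0.52 and -0.51) and Tat with diquat (-0.53), and Fgb fell with paraquat (-0.52, adjusted p 0.0467), a call lost without any array but PQ replicate 1. Of 18 markers of other liver cells, Sox9 rose with diquat and paraquat (0.45 and 0.39, SE 0.04 each), and Krt7 fell with diquat (-0.29, SE 0.04). Array medians of the S phase list were -0.10, -0.13 and -0.06 in the DQ arrays, -0.10 in each PQ array, and 0.03, -0.03 and -0.01 in the CON arrays. Those of the hepatocyte list were -0.22, -0.21 and -0.29 in the DQ arrays, -0.15, -0.16 and -0.25 in the PQ arrays, and 0.03, 0.01 and -0.03 in the CON arrays. The part of either list in the histone values was not tested.

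**Figure D4:**
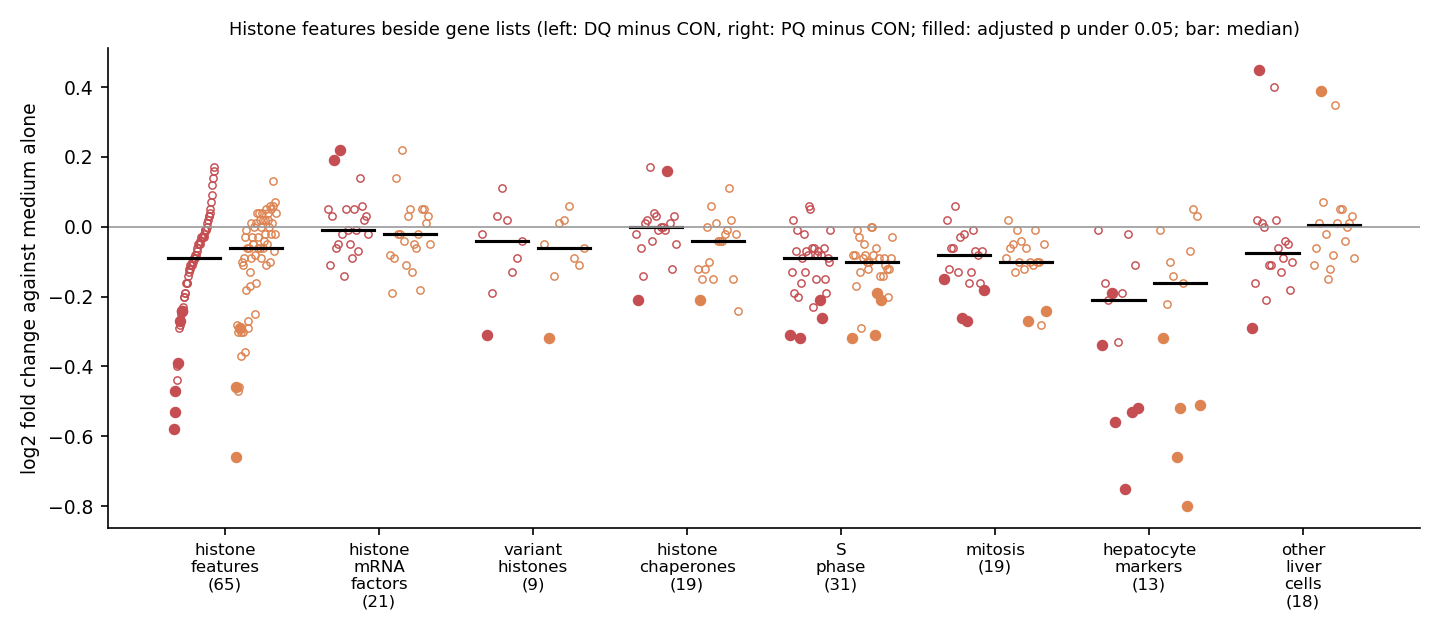
Log2 fold change against medium alone (vertical axis) of the histone features and of the genes of 7 lists (number measured in brackets), with DQ minus CON on the left and PQ minus CON on the right of each list. Filled points passed the adjusted p of 0.05 and bars are medians, which were -0.09 and -0.06 for the histone features and -0.09 and -0.10 for the S phase list.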

How the data were processed

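Total RNA was labelled with biotin and hybridised to 9 arrays. The deposited values are log2 expression per feature, which the authors made with Affymetrix Expression Console 1.1 and RMA (background correction, quantile normalization and probe summary), per the submitters' processing notes; its settings are not given here. The table gives 2 decimals. No scanner file or detection call was used, and precision is limited by the number of arrays. Names came from the platform annotation (23521 with 1 symbol, 1814 with several, 9137 with none), and all 66 gene identifiers of the histone features matched RefSeq. Of the 34472 features, 589 repeated another's values and were dropped.

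The model was fitted to these values as deposited with limma 3.58.1 under R 4.3.3 (lmFit, then eBayes), with a mean for each group, no covariate, all 9 arrays together, and Benjamini-Hochberg adjustment over 33883 features. Groups came from the sample titles. Errors beside fold changes are limma's SE, those beside levels are SD. The fit was tested on simulated data. The text names up to 30 histone features past the adjusted p, the highest and lowest feature of each family by mean of the 2 log2 fold changes, up to 4 genes past it in each other list and contrast, and Slbp, Npat, Ccne1, H2az1 and H2ax. Ccne2, H3f3a and H3f3b, also fixed, were not analysed here. Of list entries, 21 of 23 genes of histone mRNA metabolism, 12 of 16 variant histones (3 of them members), 19 of 22 chaperones, 31 of 34 S phase, 19 of 20 mitosis, 13 of 14 hepatocyte and 18 of 19 other liver cell genes had a feature of their own. Members and lists were chosen with earlier results of these data known. Alternatives covered the spread prior, a replicate block, centring and quantile normalization, a filter on dim features, a fit of 2 groups, 1 feature a gene, identical features kept, limma's array weights, a threshold fold of 1.2 in the test, and each array omitted in turn.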

Additional observations from a re-analysis of the deposited data

How the results depend on the processing

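No alternative called a histone feature higher in DQ or PQ cells, or different between PQ and DQ cells. The 7 features called with diquat were 3 when 1 feature a gene was tested (29 features, of which 3 of the 7 were tested), 0 in a test against a fold of 1.2, 5 with arrays centred, and 4 to 10 when 1 array was left out. The 3 called with paraquat were 5 without dim features, 5 with array weights, 0 against a fold of 1.2, and 0 to 4 when 1 array was left out. Restricting the features to chromosomes 13 and 3, chosen after seeing the data, gave 7 and 3. The median of -0.087 with diquat was -0.052 with arrays centred, -0.135 without dim features, and -0.118 to -0.065 when 1 array was left out. That of -0.057 with paraquat was -0.09 without dim features and -0.058 to -0.04 when 1 array was left out. That of 0.023 for PQ minus DQ was -0.01 with arrays centred, 0.063 without dim features, and -0.003 to 0.052 when 1 array was left out. Values near 0 changed sign: the highest H3 feature (17291222) with paraquat was -0.01 without PQ replicate 3, H2bc1 ran from -0.04 to 0.07 with diquat and from -0.01 to 0.1 with paraquat when 1 array was left out, and the feature of Gm5577 and H1f10 with diquat was 0.01 with arrays centred. When 1 array was left out, Tat with paraquat ran from -0.04 to 0.1, Npat with diquat from -0.05 to 0.13, and H2az1 from -0.15 to 0.08 with diquat and from -0.13 to 0.0 with paraquat. H2az1 with diquat was 0.01 with arrays centred. The cause was not tested.

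The replicate numbers of the titles were not taken to pair the arrays. Correlations of deviations of same-numbered arrays were -0.217, 0.171 and -0.162 between DQ and PQ, and 0.006, 0.071 and -0.101 between DQ and CON. Between PQ and CON they were 0.14, 0.132 and 0.09, and those of differently numbered arrays ran from -0.087 to -0.043. Pairing of PQ with CON arrays is therefore not excluded. Among the CON arrays, each PQ array correlated best with that of its own number, a hint from the data and not the design. Differently numbered arrays ran from -0.149 to 0.288 between DQ and PQ, and from -0.337 to 0.268 between DQ and CON. Values higher than those of PQ with CON thus also occurred between arrays of different number. The descriptions give replicates 2 and 3 of DQ and PQ the number 1. With the replicate number as a block, 6 histone features passed with diquat, 4 with paraquat and 0 for PQ minus DQ. Over all features 1439 passed with diquat (62.9% higher) and 993 with paraquat (56.6% higher). Diquat counts were 798 for 2 groups alone, 125 against a fold of 1.2, and 801, 700 and 854 without CON replicate 1, 2 and 3. Paraquat counts were 1646 with array weights, 99 against the fold, 503 and 479 without PQ replicate 2 and 3, and 537, 491 and 584 without CON replicate 1, 2 and 3. For PQ minus DQ, 0 passed in all but quantile normalization (5) and without PQ replicate 2 (1). The higher share with diquat was 79.6% after centring and 49.1% after quantile normalization.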
